A study of Homo sapiens with 6 samples.

Results

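The genes described here are 40 components, target genes and stem cell or lineage markers of the Wnt pathway, chosen by gene symbol from the 56638 symbols counted in RNA sequencing of colorectal cancer cells. RNA was compared between 3 libraries labelled control siRNA and 3 labelled siRNA against lncRNA-AF339830, the long non-coding RNA that the study named GLCC1, to learn which genes change when GLCC1 is knocked down. All 6 libraries came from 1 colorectal cancer cell line grown in medium with fetal bovine serum, the control cells received a nonspecific siRNA, and no treatment other than siRNA transfection is named. The sample labels name the line SW480 and the study's methods name DLD-1 for this experiment, and the line itself was not checked. The genotype label reads siRNA 1 in all 6 libraries, whereas the sample titles number the siRNA from 1 to 3 in each group. These title numbers are called replicates below, and whether they stand for different siRNAs is not stated.

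Libraries were grouped by sample title. The name given to each library carries the siRNA of the opposite group, so every direction below belongs to the libraries as labelled. Exchanging the labels would turn each sign without changing a p. The counts hold no gene named GLCC1. FARP1, the annotated gene that contains its locus, was at 109, 110.0 and 113 CPM (counts scaled to library size) in the libraries labelled control siRNA. In those labelled GLCC1 siRNA it was at 63.2, 65.6 and 65.4 CPM (log2 fold change -0.77 ± 0.081 SE, edgeR adjusted p = 9.2e-06). MYC, which encodes the transcription factor c-Myc, fell in the libraries labelled GLCC1 siRNA (log2 fold change -0.48 ± 0.10 SE, edgeR adjusted p = 0.0030). A library held between 11948790 and 19042516 counts on genes. The smallest was replicate 2 of the GLCC1 siRNA group. Counts on no annotated gene made up 11.2% to 11.5% of those on genes, on none or on several in control libraries and 12.5% to 14.2% in GLCC1 siRNA libraries, with replicate 2 the highest, and their part in the results was not tested. That library also stood apart from the other GLCC1 siRNA libraries in its base composition. Across 12268 genes, the Spearman correlation between the GC content of a gene and the difference of replicate 2 from the other two was -0.75. For the 3 control libraries, each against the others, such correlations lay from -0.41 to 0.47.

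In canonical Wnt signalling, a Wnt ligand binds a Frizzled receptor together with LRP5 or LRP6, and the cytoplasmic complex of APC, AXIN and GSK3 then no longer marks beta-catenin for destruction. Beta-catenin enters the nucleus and activates target genes together with factors of the TCF/LEF family. In the crypts of the intestine the pathway maintains the LGR5-positive stem cells, and in most colorectal cancers, SW480 and DLD-1 among them, loss of APC function leaves it active without a ligand. Several of its targets, such as AXIN2, NKD1, NOTUM, RNF43 and ZNRF3, act back on the pathway and restrain it.

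Of the 40 genes, 36 had enough counts to be tested, 20 passed the test at an adjusted p under 0.05 and 16 did not. With GLCC1 siRNA, 12 were higher, among them LGR5, the marker of intestinal stem cells, and the direct target genes NKD1 and SP5, and 8 were lower, among them NKD2, NOTUM and the intestinal lineage factor CDX1. AXIN2, the target gene most often read as a measure of pathway activity, was at 335 ± 4.09 CPM (SD, n = 3) in control libraries and at 320.4 ± 10.9 CPM in GLCC1 siRNA libraries and did not pass. The median log2 fold change was -0.037 over the 36 genes and 0.028 over all genes tested. The share that passed was 55.6%, and of all 23074 genes tested 31.6% passed, 14.9% as higher and 16.7% as lower. The 40 genes were chosen with earlier results of these data known, so the shares given here are not a test of the set. Of the 35 members whose mean reached 1 CPM, 57.1% passed, beside 45.1% of all genes at that level. The 3 control values and the 3 GLCC1 siRNA values did not overlap for 29 of the 36 genes (80.6%). Over all 23074 genes tested that share was 46.3%. It was not taken for genes at 1 CPM or more, a level reached by 35 members and by 14875 of all genes. The 80.6% and the 46.3% are thus not matched in level, and their difference cannot be read as a trait of the members. Each fold change is the GLCC1 siRNA level over the control level on the log2 scale, with its standard error (SE), and levels are CPM after TMM scaling. With 3 libraries against 3, an exact permutation test of 1 gene cannot give a two-sided p below 0.1, and each adjusted p comes from the edgeR model over all genes.

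**Figure D1:**
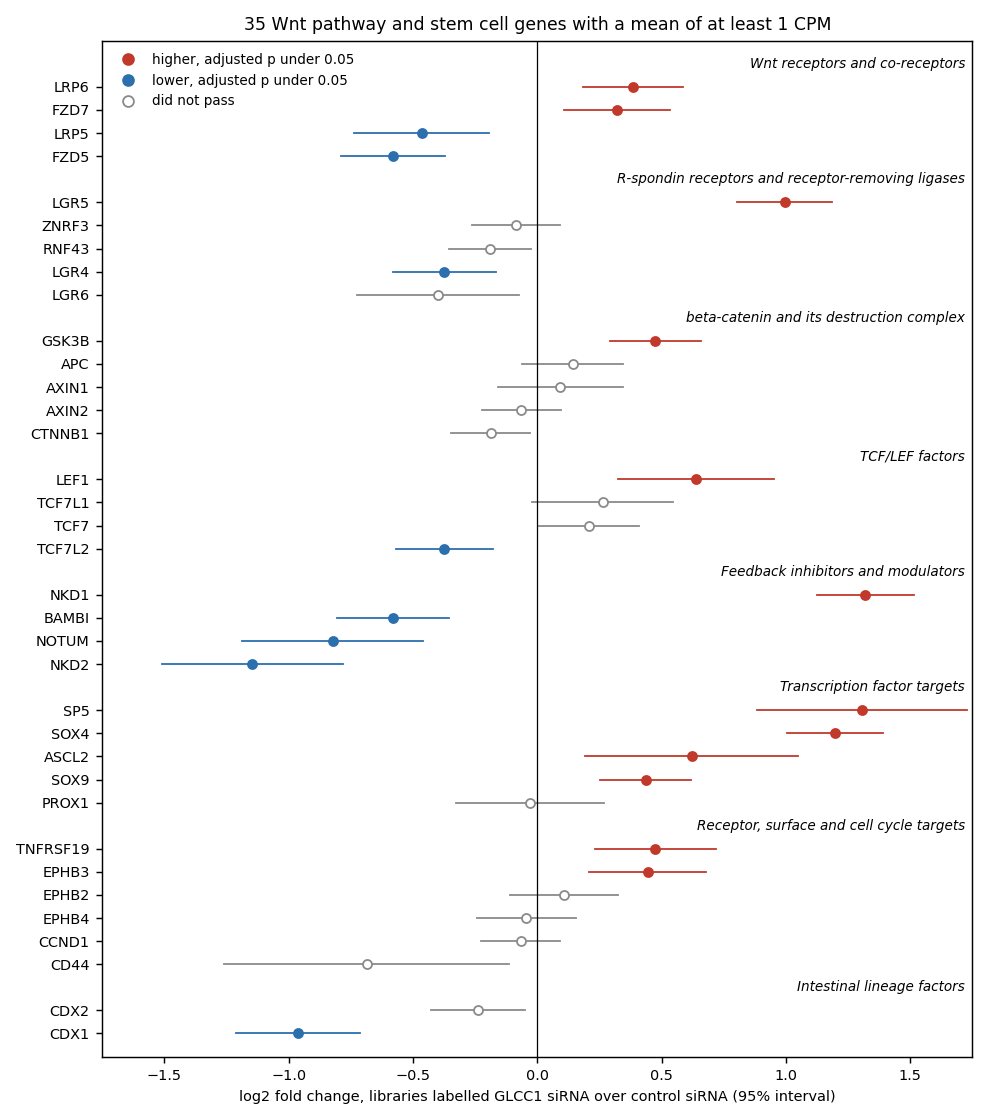
Log2 fold changes (points) with 95% intervals (lines) of the 35 Wnt pathway and stem cell genes whose mean reached 1 CPM, ordered within each role. Filled points passed at an adjusted p under 0.05, 12 higher and 8 lower, and higher and lower genes stand side by side in 4 of the 8 roles shown.

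Promoters of a pair of genes that rose and of 1 that did not pass are shown first, to compare their TCF/LEF words. SP5, a direct Wnt target that encodes a zinc finger repressor, and SOX4, a SOX factor of progenitor cells, both rose, whereas CDX2, a homeobox factor of the intestinal lineage, did not pass. The RefSeq promoters run from 250 bases before to 50 after the start of a gene in GRCh38.p14, and were found for 27 of the 40 genes. The 7-base words CTTTGAT and CTTTGAA, which TCF/LEF factors are known to bind, are in capitals where they occur on either strand, so that TTCAAAG marks a word on the other strand.
SP5 (chr2:170715087-170715386, plus strand): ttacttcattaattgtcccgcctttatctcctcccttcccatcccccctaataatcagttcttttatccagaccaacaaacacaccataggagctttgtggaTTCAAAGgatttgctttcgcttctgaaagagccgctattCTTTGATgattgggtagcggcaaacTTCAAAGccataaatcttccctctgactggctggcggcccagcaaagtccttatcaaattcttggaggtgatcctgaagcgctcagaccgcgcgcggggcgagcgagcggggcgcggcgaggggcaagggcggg
SOX4 (chr6:21593501-21593800, plus strand): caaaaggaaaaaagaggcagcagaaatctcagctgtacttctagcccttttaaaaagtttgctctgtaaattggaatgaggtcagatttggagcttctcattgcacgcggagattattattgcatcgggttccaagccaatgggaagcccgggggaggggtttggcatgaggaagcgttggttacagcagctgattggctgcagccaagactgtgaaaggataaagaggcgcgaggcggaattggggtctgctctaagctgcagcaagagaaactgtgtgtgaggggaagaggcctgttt
CDX2 (chr13:27969266-27969565, minus strand): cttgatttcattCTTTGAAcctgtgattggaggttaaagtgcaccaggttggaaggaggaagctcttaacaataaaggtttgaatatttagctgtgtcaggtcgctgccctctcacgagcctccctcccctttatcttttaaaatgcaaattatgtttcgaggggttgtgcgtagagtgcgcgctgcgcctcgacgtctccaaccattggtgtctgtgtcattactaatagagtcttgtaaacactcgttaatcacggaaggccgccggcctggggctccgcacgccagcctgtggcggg
The promoter of SP5 holds 3 words, at 148, 109 and 84 bases before the start, that of CDX2 holds 1 at 238 bases before, and that of SOX4 holds none. Of all 35116 promoters of that length, 6.86% hold at least 1 word and 9 (0.0256%) hold 3 or more. The 27 genes have 39 promoters in the table, of which 4 (10.3%) hold a word, those of SP5, CDX2, DKK1 and PROM1, and DKK1 and PROM1 had almost no counts. A word is a match of letters and not a measured binding site, and elements outside these windows were not searched.

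SP5 was at 1.65, 1.98 and 1.63 CPM in the control libraries, one of the lowest levels in the set. It rose to 4.28, 4.85 and 4.03 CPM in the GLCC1 siRNA libraries (log2 fold change 1.30 ± 0.20 SE, edgeR adjusted p = 1.9e-04). All 3 GLCC1 siRNA libraries lay above all 3 control libraries, and the groups were separated by more than the whole range of either. For SOX4 the control libraries held 36.4, 34.2 and 33.8 CPM and the GLCC1 siRNA libraries 76.1, 83.5 and 79.8 CPM (log2 fold change 1.20 ± 0.089 SE, edgeR adjusted p = 4.9e-07). The gene lies at chr6:21593982-21598850 in hg19 and SP5 at chr2:171571847-171574588. ASCL2, the basic helix-loop-helix factor that sets the stem cell state of the crypt (chr11:2289728-2291818), had 4.59, 5.23 and 3.61 CPM in control libraries. The GLCC1 siRNA libraries had 6.20, 5.57 and 8.78 CPM (log2 fold change 0.62 ± 0.20 SE, edgeR adjusted p = 0.029). Its lowest GLCC1 siRNA library stood just above its highest control library, and replicate 3 was the highest. ASCL2 no longer passed without control replicate 1, control replicate 3 or GLCC1 siRNA replicate 3. The log2 fold changes were then 0.64, 0.48 and 0.40, with edgeR adjusted p of 0.072, 0.14 and 0.15. SOX9, a SOX factor of crypt base cells and Paneth cells (chr17:70117161-70122557), was already high, at 216, 216 and 206 CPM in the controls. It reached 269, 317 and 277 CPM (log2 fold change 0.44 ± 0.084 SE, edgeR adjusted p = 0.0013). PROX1, a homeobox factor known as a Wnt target in colorectal tumours, was at 15.1 ± 1.69 CPM and 14.9 ± 2.51 CPM (SD, n = 3), its groups overlapped, and it did not pass. Of these 5 transcription factor targets, 4 rose and none fell. Their summed level went from between 260 and 274 CPM to between 368 and 429 CPM, mostly SOX9.

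**Figure D2:**
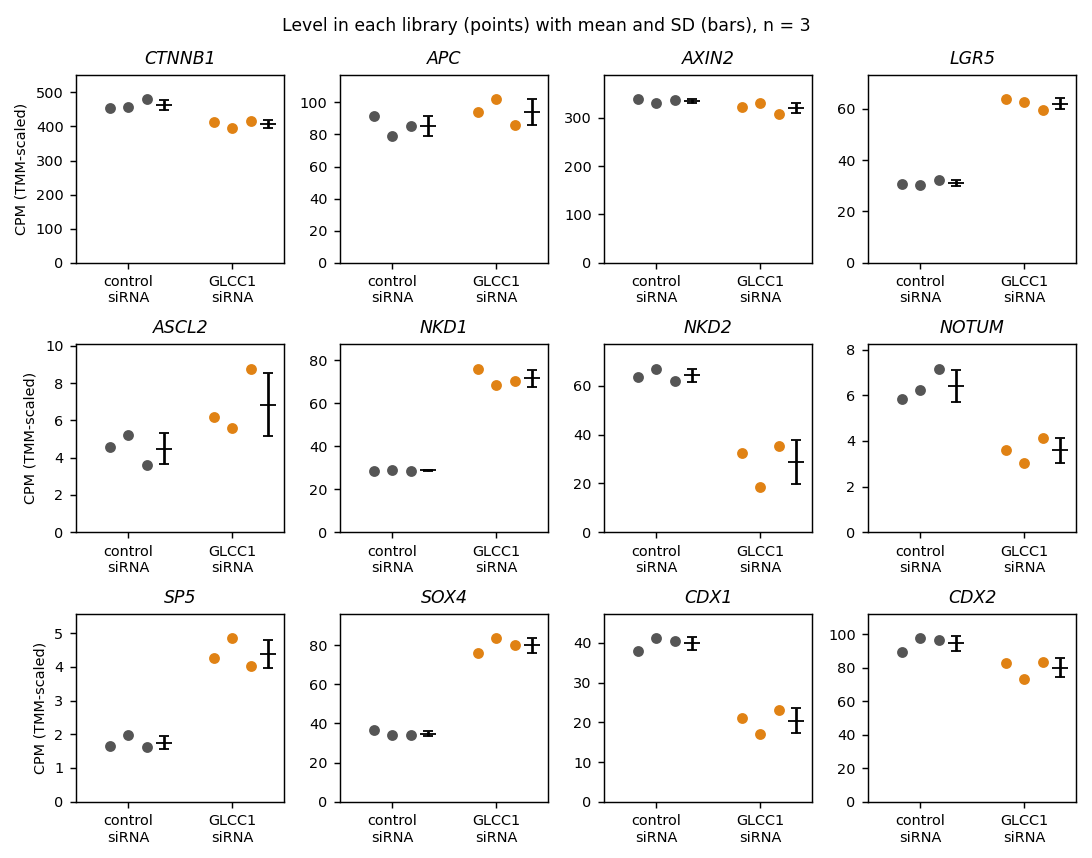
Level (CPM after TMM scaling, axes from 0) of 12 genes in each library, with the mean and SD (n = 3) to the right of the points. LGR5, NKD1, SP5 and SOX4 are at least about 2 times as high with GLCC1 siRNA, NKD2 and CDX1 are lower in all 3 libraries, and CTNNB1, APC and AXIN2 did not pass.

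Of the 4 receptors and co-receptors, 2 rose and 2 fell, and each pair of relatives moved apart. Of the 2 Frizzled receptors, FZD5 (chr2:208627322-208634630), the receptor of the intestinal epithelium, was at 68.8, 74.7 and 63.4 CPM in the control libraries. It fell to 46.0, 49.5 and 42.9 CPM (log2 fold change -0.58 ± 0.097 SE, edgeR adjusted p = 4.4e-04). FZD7 (chr2:202898578-202903164), which carries Wnt signals in LGR5-positive stem cells, moved the other way, from 38.0, 40.7 and 41.7 CPM to 54.0, 44.5 and 51.6 CPM (log2 fold change 0.32 ± 0.099 SE, edgeR adjusted p = 0.024). The groups did not overlap for either receptor. The call of FZD7 was lost when any library other than GLCC1 siRNA replicate 2 was left out (log2 fold changes from 0.27 to 0.35, edgeR adjusted p from 0.065 to 0.12). The ratio of FZD7 to FZD5 counts within a library, which no scaling of libraries can move, lay between 0.545 and 0.658 in the controls. With GLCC1 siRNA it lay between 0.900 and 1.20. This and the other ratios of counts given here were picked after the values were seen and carry no test.

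The co-receptors LRP5 and LRP6, which are close relatives and bind the same ligands, also moved apart. LRP5 (chr11:68080059-68216743) was at 167, 206 and 184 CPM in control libraries. In GLCC1 siRNA libraries it was at 143, 106 and 154 CPM (log2 fold change -0.47 ± 0.13 SE, edgeR adjusted p = 0.012). LRP6 (chr12:12268959-12419978) was at 176, 181 and 197 CPM and then at 226, 272 and 225 CPM (log2 fold change 0.38 ± 0.093 SE, edgeR adjusted p = 0.0061). GLCC1 siRNA replicate 2 was the lowest of its group for LRP5, whose transcript has 62.9% GC. It was the highest for LRP6, whose transcript has 40.9% GC. With GC content and transcript length taken into account as offsets, the log2 fold change was -0.30 for LRP5 (adjusted p = 4.4e-05) and 0.33 for LRP6 (adjusted p = 9.7e-06). Without replicate 2 these values were -0.32 and 0.29. Without control replicate 2, LRP5 no longer passed (log2 fold change -0.38, adjusted p = 0.081). The ratio of LRP6 to LRP5 counts was between 0.875 and 1.07 in control libraries and between 1.46 and 2.58 with GLCC1 siRNA, where replicate 2 had 2.58.

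R-spondins bind LGR4, LGR5 and LGR6 and keep the ligases RNF43 and ZNRF3 from removing Frizzled receptors. LGR5 (chr12:71833578-71980090), both a receptor of this kind and the marker of crypt stem cells, was at 30.7, 30.3 and 32.3 CPM in control libraries. In GLCC1 siRNA libraries it was at 63.8, 62.6 and 59.6 CPM (log2 fold change 0.99 ± 0.089 SE, edgeR adjusted p = 2.5e-06). It was about 2 times as high with GLCC1 siRNA, and the 3 libraries of each group lay close together. LGR4 (chr11:27387508-27494337), the broadly expressed member, was at 168, 171 and 171 CPM and fell to 121, 152 and 121 CPM (log2 fold change -0.37 ± 0.096 SE, edgeR adjusted p = 0.0089). GLCC1 siRNA replicate 2 was the nearest to the controls. Its call was lost with library totals in place of TMM (log2 fold change -0.25, adjusted p = 0.067), a change of scaling that moved all genes by a median of 0.12. LGR6, the least abundant of the 3, was at 8.76 ± 0.92 CPM and 6.57 ± 0.969 CPM (SD, n = 3) and did not pass (log2 fold change -0.40 ± 0.15 SE, edgeR adjusted p = 0.059). With a filter of 1 count in any library its adjusted p was 0.048.

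Per kilobase of transcript, LGR5 made up 16.3 ± 0.582% of the 3 LGR receptors in control libraries and 33.6 ± 2.39% in GLCC1 siRNA libraries (SD, n = 3). In turn LGR4 went from 77.9 ± 0.113% to 61.8 ± 3.34% and LGR6 from 5.77 ± 0.601% to 4.51 ± 0.959%. LGR4 thus remained the most abundant LGR mRNA in every library. RNF43 was at 297 ± 11 CPM and 260.0 ± 10 CPM (log2 fold change -0.19 ± 0.076 SE, edgeR adjusted p = 0.076), and its groups did not overlap although it did not pass. Without GLCC1 siRNA replicate 2 it passed (log2 fold change -0.17, edgeR adjusted p = 0.0081), and also with the offsets for GC content and length. ZNRF3 was at 93.1 ± 3.76 and 87.8 ± 2.36 CPM, with overlapping groups. The 95% interval of the log2 fold change of ZNRF3 ran from -0.26 to 0.091, and its sign turned with library totals.

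**Figure D3:**
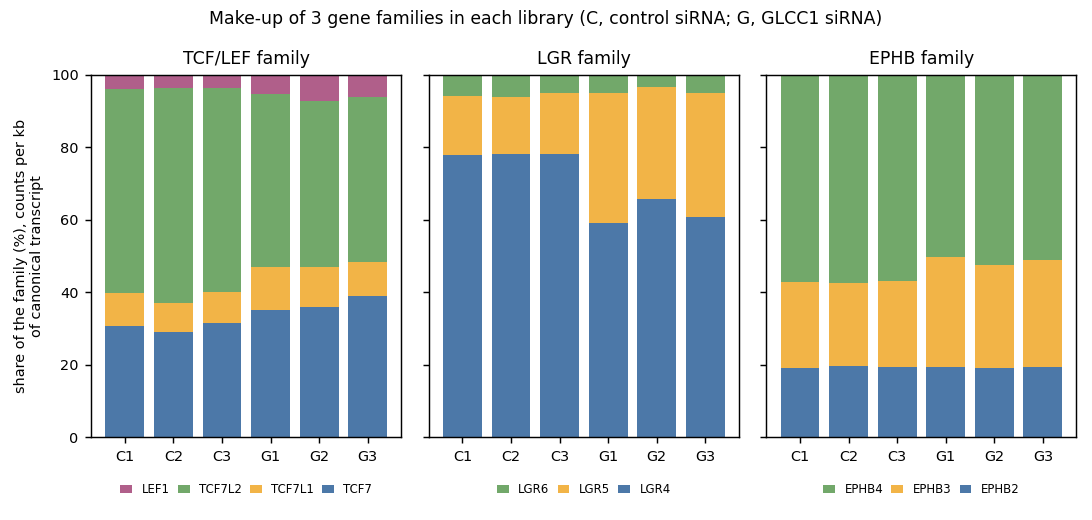
Share of each member in its family (%), from counts per kilobase of canonical transcript, in each control library (C1 to C3) and GLCC1 siRNA library (G1 to G3). LGR5 takes between 31.0% and 35.6% of the LGR family with GLCC1 siRNA and between 15.8% and 16.9% without it, LEF1 and EPHB3 also take more, and TCF7L2, LGR4 and EPHB4 take less.

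Of beta-catenin and its destruction complex, 1 of 5 members passed. CTNNB1, which encodes beta-catenin (chr3:41236232-41301587), was at 453, 458 and 481 CPM in control libraries. With GLCC1 siRNA it was at 412, 395 and 415 CPM (log2 fold change -0.19 ± 0.074 SE, edgeR adjusted p = 0.069). All 3 GLCC1 siRNA libraries lay below all 3 controls, yet the difference did not pass the adjusted threshold, and its 95% interval ran from -0.35 to -0.029. It passed without GLCC1 siRNA replicate 2 (log2 fold change -0.16, adjusted p = 0.0093) and with GC content and length as offsets (-0.21, adjusted p = 0.0015). APC (chr5:112043215-112181936) was at 91.5, 79.0 and 85.2 CPM and 94.1, 102 and 86.1 CPM, overlapping values whose difference did not pass (log2 fold change 0.14 ± 0.094 SE, edgeR adjusted p = 0.28). AXIN1, the constitutive scaffold, also overlapped, at 76.7 ± 5.15 and 81.7 ± 14 CPM (SD, n = 3). It did not pass, but did so without GLCC1 siRNA replicate 2 (log2 fold change 0.22, edgeR adjusted p = 0.0018) and with the offsets (0.26, adjusted p = 2.7e-04). AXIN2, its Wnt-induced relative (chr17:63524681-63557766), was at 339, 331 and 336 CPM in controls. With GLCC1 siRNA it was at 322, 330.4 and 309 CPM (log2 fold change -0.065 ± 0.074 SE, edgeR adjusted p = 0.54). The highest of its GLCC1 siRNA libraries and its lowest control library were nearly equal. The 95% interval of its log2 fold change ran from -0.22 to 0.094, below the log2 fold changes of LGR5 and NKD1. Its sign turned with library totals (log2 fold change 0.057). GSK3B, the kinase that phosphorylates beta-catenin in this complex (chr3:119540168-119813841), was the 1 member of this role that passed. It was at 75.8, 70.3 and 71.0 CPM in controls and rose to 98.7, 107 and 96.5 CPM (log2 fold change 0.47 ± 0.085 SE, edgeR adjusted p = 7.6e-04). GSK3A, the kinase with which it shares that function, fell (log2 fold change -0.48 ± 0.13 SE, edgeR adjusted p = 0.014). The ratio of GSK3B to GSK3A counts was between 1.56 and 1.92 in controls and between 2.81 and 4.67 with GLCC1 siRNA. The counts of LGR5 over those of AXIN2 went from between 0.0906 and 0.0962 to between 0.189 and 0.198.

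The TCF/LEF factors, which bring beta-catenin to DNA, did not move together, and 1 rose and 1 fell. TCF7L2 (chr10:114710006-114927437), the main factor of the family in intestinal epithelium, was at 80.1, 91.5 and 83.2 CPM in control libraries. It fell to 69.6, 61.8 and 65.1 CPM in the GLCC1 siRNA libraries (log2 fold change -0.37 ± 0.091 SE, edgeR adjusted p = 0.0062). Without control replicate 2 its adjusted p was 0.051. LEF1 (chr4:108968701-109090112), which is a Wnt target in colorectal cancer as well as a mediator of the pathway, was at 4.94, 5.07 and 4.94 CPM and rose to 7.04, 8.75 and 7.66 CPM (log2 fold change 0.64 ± 0.15 SE, edgeR adjusted p = 0.0041). Neither gene had overlapping groups, and LEF1 was low in all libraries. TCF7 was at 36.3 ± 1.24 and 41.8 ± 2.82 CPM (SD, n = 3) and did not pass (edgeR adjusted p = 0.11). It passed under 4 of the 14 settings, among them without GLCC1 siRNA replicate 2 (log2 fold change 0.25, edgeR adjusted p = 0.0025). TCF7L1, the member that mostly represses, was at 9.37 ± 0.101 and 11.2 ± 1.47 CPM and did not pass either (edgeR adjusted p = 0.15), except under 2 settings. Per kilobase of transcript TCF7L2 took 57.2 ± 1.68% of the family in controls and 46.2 ± 1.11% with GLCC1 siRNA (SD, n = 3). TCF7 went from 30.3 ± 1.25% to 36.6 ± 2.01%, TCF7L1 from 8.63 ± 0.435% to 10.8 ± 1.28% and LEF1 from 3.83 ± 0.118% to 6.32 ± 0.958%.

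Of the 4 feedback inhibitors and modulators tested, 1 rose and 3 fell, and NKD1 and NKD2 were at the ends of the range of the members that passed. NKD1 (chr16:50582307-50683160), an inhibitor that binds Dishevelled and a direct Wnt target, was at 28.5, 28.9 and 28.6 CPM in control libraries. It rose to 76.0, 68.2 and 70.1 CPM in the GLCC1 siRNA libraries (log2 fold change 1.32 ± 0.090 SE, edgeR adjusted p = 2.7e-07). NKD2 (chr5:1008917-1039058), its relative, was at 63.6, 67.1 and 62.1 CPM and fell to 32.3, 18.7 and 35.2 CPM (log2 fold change -1.15 ± 0.17 SE, edgeR adjusted p = 1.6e-04). Replicate 2 was the lowest of the GLCC1 siRNA libraries for NKD2, whose transcript has 67.7% GC. Without that library the log2 fold change was -0.92. The ratio of NKD1 to NKD2 counts went from between 0.431 and 0.461 to between 1.99 and 3.65. NKD1 thus had fewer counts than NKD2 in each control library and more in each GLCC1 siRNA library. Divided by annotated transcript length, NKD1 was the lower of the pair, at 1.68 and 4.19 CPM per kilobase beside 29.4 and 13.2 for NKD2. The annotated transcript of NKD1 is 17039 bases long, of which 15471 are 3′ UTR, and that of NKD2 is 2182. The gene models on which the reads were counted may be shorter, which was not checked, so the order per kilobase is uncertain. NOTUM (chr17:79910383-79919716), a secreted enzyme that inactivates Wnt ligands, was at 5.83, 6.23 and 7.17 CPM in controls. It fell to 3.60, 3.02 and 4.14 CPM (log2 fold change -0.82 ± 0.17 SE, edgeR adjusted p = 0.0020). BAMBI (chr10:28966439-28971861), a Wnt target that dampens TGF-beta receptor signalling, was at 26.3, 25.5 and 26.7 CPM and fell to 16.7, 16.5 and 19.2 CPM (log2 fold change -0.58 ± 0.10 SE, edgeR adjusted p = 8.0e-04). The groups of all 4 genes stood apart. The secreted inhibitors DKK1 and DKK4 each had 1 count over the 6 libraries and could not be tested.

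Of the receptor, surface and cell cycle targets, 2 of 6 rose. TNFRSF19 (chr13:24144509-24250243), the stem cell receptor also called TROY, was at 14.7, 13.6 and 14.0 CPM in controls. It rose to 20.2, 21.1 and 17.6 CPM (log2 fold change 0.47 ± 0.11 SE, edgeR adjusted p = 0.0054). EPHB3 (chr3:184279573-184300196), an Eph receptor that helps to keep Paneth cells at the crypt base, was at 38.2, 39.9 and 39.5 CPM and rose to 59.0, 44.5 and 56.1 CPM (log2 fold change 0.44 ± 0.11 SE, edgeR adjusted p = 0.0069). Replicate 2 was the lowest of the GLCC1 siRNA libraries. Its relatives had overlapping groups and did not pass. EPHB2 was at 84.9 ± 4.53 and 91.3 ± 11.4 CPM and EPHB4 at 98.4 ± 4.09 and 95.4 ± 9.38 CPM (SD, n = 3). EPHB2 passed without GLCC1 siRNA replicate 2 (log2 fold change 0.21, edgeR adjusted p = 0.0023) and with the offsets (0.17, adjusted p = 0.0066). The sign of EPHB4 turned with library totals. CCND1, the cyclin D1 gene, was the most abundant of the 40 in CPM and per kilobase, at 1249 ± 46.6 and 1192 ± 55.3 CPM, and did not pass (log2 fold change -0.067 ± 0.074 SE, edgeR adjusted p = 0.53). CD44, a surface protein used as a stem cell marker of colorectal cancer, was low, at 2.44 ± 0.224 and 1.46 ± 0.542 CPM, and did not pass (log2 fold change -0.69 ± 0.27 SE, edgeR adjusted p = 0.065). It passed under 4 of the 14 settings, with a log2 fold change of -1.01 without GLCC1 siRNA replicate 1 (edgeR adjusted p = 0.020).

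Of the lineage factors, 1 fell and 1 did not pass. CDX1 (chr5:149546341-149564121), a homeobox factor of intestinal differentiation, was at 38.1, 41.2 and 40.5 CPM in control libraries. With GLCC1 siRNA it fell to 21.1, 16.9 and 23.2 CPM (log2 fold change -0.96 ± 0.12 SE, edgeR adjusted p = 3.2e-05). CDX2 was at 94.6 ± 4.38 and 80.1 ± 5.71 CPM (SD, n = 3), with no overlap between the groups, and did not pass (log2 fold change -0.24 ± 0.088 SE, edgeR adjusted p = 0.055). It passed without GLCC1 siRNA replicate 2 (log2 fold change -0.18, edgeR adjusted p = 0.0091). The ratio of CDX2 to CDX1 counts went from between 2.35 and 2.38 to between 3.61 and 4.34. EPCAM, the surface marker of epithelium, was at 319 CPM in controls and 258 CPM with GLCC1 siRNA. Both CDX genes are among the 10 markers of colon epithelium, of which 7 were lower and none higher. The summed level of the 10 was between 5680 and 6219 CPM in controls and between 2279 and 2720 CPM with GLCC1 siRNA. Most of that sum was the keratins KRT8, KRT19 and KRT18, which fell to 0.33, 0.39 and 0.28 of the control level. The others that were lower, EPCAM, CDH1, LGALS4 and CDX1, were at 0.81, 0.69, 0.63 and 0.51 of it. CDX2, VIL1 and KRT20 did not pass. KRT8 was the most abundant of the 10, at 3409, 3768 and 3575 CPM in controls and 1225, 1006 and 1301 CPM with GLCC1 siRNA (log2 fold change -1.61 ± 0.096 SE, edgeR adjusted p = 9.5e-08). In bulk RNA, fewer cells of a type and less RNA per cell cannot be told apart, and the part of this marker change in the result for CDX1 was not tested. Of the markers listed for other cell types, some were at 0 in every library. They were PTPRC of leukocytes, PECAM1, CDH5 and KDR of endothelium and COL1A2, DCN and LUM of fibroblasts. Other markers of the same lists had counts. COL1A1 fell from 13.4 to 7.38 CPM (log2 fold change -0.86 ± 0.14 SE, edgeR adjusted p = 2.9e-04). PDGFRB was at 4.56 and 4.83 CPM and CD14 at 3.29 and 4.39 CPM, and neither passed. The summed level of the 6 fibroblast markers was between 16.1 and 19.9 CPM in controls and between 10.7 and 13.3 CPM with GLCC1 siRNA, mostly COL1A1. That of the 6 leukocyte markers was between 3.36 and 5.00 CPM and between 3.74 and 6.46 CPM, and that of the 4 endothelial markers at most 1.03 and 1.40 CPM. The other stem cell markers were near 0. PROM1 had 8 counts over all libraries and did not pass, SMOC2 had 3 counts and OLFM4 none. At this depth no change in them was detectable.

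Per kilobase of transcript in control libraries, CCND1 stood first of the 36 genes at 295 CPM per kilobase, then CTNNB1 at 127, AXIN2 at 78.7, RNF43 at 65.6 and SOX9 at 54.1. LGR5 was at 6.79 and ASCL2 at 3.02 CPM per kilobase, and SP5, CD44 and PROM1 were the lowest 3 at 0.856, 0.449 and 0.0305. With GLCC1 siRNA, SOX4 was at 16.4 and LGR5 at 13.5 CPM per kilobase, both above APC at 8.79. Exons of 20 of the 40 genes, and of 8 of the 20 that passed, overlap those of another annotated gene on either strand, such as LEF1-AS1 for LEF1, LGR4-AS1 for LGR4 and GSK3B-DT for GSK3B. The strand setting of the counting is not given in the sources used here, so the counts of those genes are uncertain by what falls on the overlap.

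**Figure D4:**
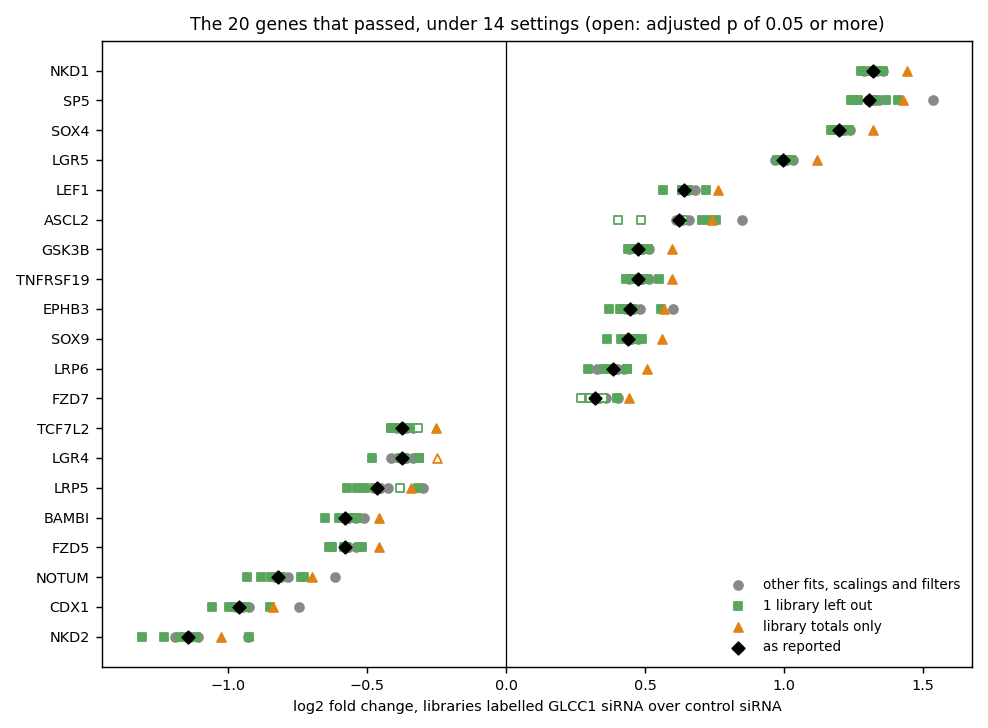
Log2 fold change of the 20 genes that passed, as reported (diamonds) and under the other fits, scalings, filters and left-out libraries, 14 settings in all. Open symbols mark an adjusted p of 0.05 or more, which occurs for ASCL2, FZD7, TCF7L2, LGR4 and LRP5, and no gene crosses 0.

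Of the other 95 genes listed for the pathway, 78 were tested, 12 were higher (15.4%) and 20 lower (25.6%). The share called was 41.0%, beside 31.6% of all genes tested and 45.1% of those at 1 CPM or more. Of the 78 genes, 68 reached that level, so the 41.0% and the 45.1% are not matched in level. This split became 19 higher and 15 lower with library totals in place of TMM, 18 and 15 with at least 10 counts in every library, 20 and 22 with GC content and length as offsets and 22 and 26 without GLCC1 siRNA replicate 2. Of 13 Wnt ligands tested, 5 were lower and 2 higher. All were low in these cells, and the first of each pair of values is the control mean. WNT11 was at 6.92 and 1.80 CPM (log2 fold change -1.94 ± 0.21 SE, edgeR adjusted p = 1.3e-05). WNT9A was at 3.73 and 0.303 CPM (log2 fold change -3.44 ± 0.41 SE, edgeR adjusted p = 2.8e-05). For WNT4 the means were 2.69 and 0.587 CPM (log2 fold change -2.11 ± 0.33 SE, edgeR adjusted p = 2.5e-04). The 2 that were higher were WNT3 and WNT2B. WNT3 was at 6.36 and 9.05 CPM (log2 fold change 0.50 ± 0.15 SE, edgeR adjusted p = 0.017). WNT2B was at 1.68 and 2.78 CPM (log2 fold change 0.70 ± 0.22 SE, edgeR adjusted p = 0.028). WNT11 is best known for signalling outside the beta-catenin branch. PORCN, the enzyme that acylates Wnt ligands before secretion, fell as well (log2 fold change -1.49 ± 0.18 SE, edgeR adjusted p = 3.5e-05). Of the 8 secretion and extracellular genes tested it was the 1 that passed. Of 11 further Frizzled and alternative receptors, FZD6 was higher (log2 fold change 0.41 ± 0.087 SE, edgeR adjusted p = 0.0023) and FZD3 was lower (log2 fold change -0.49 ± 0.091 SE, edgeR adjusted p = 9.5e-04). FZD8 is also among the 20 counted as lower, but all of its 10 counts were in control libraries. It entered the test only through those counts, so its call cannot be read as a result.

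Among 21 cytoplasmic components tested, 3 were higher and 5 lower. BTRC, the ubiquitin ligase subunit that recognises phosphorylated beta-catenin, rose (log2 fold change 0.79 ± 0.091 SE, edgeR adjusted p = 2.2e-05), and so did the casein kinase gene CSNK1G3 (log2 fold change 0.86 ± 0.12 SE, edgeR adjusted p = 1.3e-04). FBXW11, the relative of BTRC with the same role, fell (log2 fold change -0.31 ± 0.085 SE, edgeR adjusted p = 0.013). Of 15 nuclear cofactors of beta-catenin, 6 were higher and 2 lower. BCL9, which links beta-catenin to Pygopus proteins, went from 39.0 to 78.2 CPM (log2 fold change 1.00 ± 0.089 SE, edgeR adjusted p = 2.2e-06), and its partner PYGO2 from 39.4 to 62.7 CPM (log2 fold change 0.67 ± 0.098 SE, edgeR adjusted p = 1.5e-04). HDAC1, a histone deacetylase that acts with TCF repressors, rose too (log2 fold change 0.54 ± 0.078 SE, edgeR adjusted p = 1.4e-04). Of 10 other intestinal stem cell genes tested, none was higher and 5 were lower. The 3 with the smallest adjusted p were EPHA2, an Eph receptor (log2 fold change -1.07 ± 0.11 SE, edgeR adjusted p = 1.0e-05), TERT, the telomerase subunit (log2 fold change -1.38 ± 0.20 SE, edgeR adjusted p = 1.5e-04), and SLC12A2, an ion transporter of crypt base cells (log2 fold change -0.65 ± 0.10 SE, edgeR adjusted p = 3.3e-04). KLF5 (log2 fold change -0.49 ± 0.082 SE, edgeR adjusted p = 4.4e-04) and CDCA7 (log2 fold change -0.40 ± 0.10 SE, edgeR adjusted p = 0.0077) were lower too. LGR5, ASCL2, TNFRSF19 and SOX9, described above, moved in the opposite direction to these 5, and CD44 and PROM1 did not pass. That contrast was drawn after the values were seen, and ASCL2 passed under only 11 of the 14 settings.

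An siRNA can pair with other transcripts through bases 2 to 8 of its guide strand. The genotype label names siRNA 1 in the control libraries too, and the titles number the siRNA from 1 to 3 in each group. It is thus not certain which siRNA the cells of each library received. The sequence used here is that of siRNA 1. Its site in GLCC1 and the members whose 3′ UTR in hg19 holds the same 7-base word are shown, with the word in capitals and 10 bases on each side in the members, because an siRNA may lower such transcripts.
GLCC1 (bases 20 to 38 of the cloned transcript): ggaagagcaacACCTTGAa
FZD5 (word at chr2:208629564-208629570, minus strand): ttttctgatcACCTTGAccttttccct
TCF7L2 (word at chr10:114925803-114925809, plus strand): ccccacccccACCTTGAaaggttttgt
SOX9 (word at chr17:70121369-70121375, plus strand): agagaaaaacACCTTGAgccttaaaac
EPHB4 (word at chr7:100400777-100400783, minus strand): tgcccccctcACCTTGAtgggtgcgtt
LGR6 (word at chr1:202288548-202288554, plus strand): cctcagcttcACCTTGAtactgggcct
The word was present in 5 of 35 members (14.3%), beside 12.0% of the 11337 genes at 1 CPM or more whose 3′ UTR could be searched. FZD5 and TCF7L2 were lower, SOX9 was higher, and EPHB4 and LGR6 did not pass, so the word was in 2 of the 8 lower members, 1 of the 12 higher members and 2 of the 15 others. Over all genes searched it was in 17.8% of those called lower, 8.76% of those called higher and 10.2% of those not called. The part of the word in the falls of FZD5 and TCF7L2 was not tested.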

How the data were processed

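RNA of 6 libraries of a colorectal cancer cell line was sequenced. The authors mapped reads to hg19 with TopHat2 2.0.11, per the labels, counted them on genes with HTSeq and deposited raw counts per gene symbol. All columns of the deposited counts that hold samples were used, and the tallies of reads on no gene or on several were removed. Genes with at least 5 counts summed over either condition, 23074 in number, were fitted with TMM scaling and the robust quasi-likelihood test of edgeR 4.0.16 (R 4.3.3), with Benjamini-Hochberg adjustment over all of them. The fit was tested on simulated data, where 183 of 200 genes changed by a log2 of 1 were recovered among 22227 genes. Of the 194 genes called there, 11 were unchanged. The simulation held no library that stood apart and no trend with GC content, so it does not cover those features of the data.

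Libraries were grouped by title, and the labels do not say that replicates were separate cultures, so p-values measure the spread between these libraries, which may be technical. Copies of a library were looked for and not found. The 40 genes and the other lists were chosen with earlier results of these data known. Values in every library are given for members that passed at a mean of at least 1 CPM and for CTNNB1, APC, LGR5, ASCL2 and AXIN2, and the 3 of each other list with the smallest adjusted p and at least 1 CPM are named, with further genes named after their values were seen. Alternatives were DESeq2 1.42.0, other scalings, 2 filters, a replicate block, each library left out and, added after seeing the data, GC content and transcript length as offsets. Gene positions, lengths and 3′ UTRs (of at least 50 bases) come from GENCODE 44 mapped to hg19, and promoters from RefSeq. The gene models used for counting may differ in length, so levels and shares per kilobase are approximate. Ratios and figures used Python 3.11.15.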

Additional observations from a re-analysis of the deposited data

How the results depend on the processing

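Of the 20 members that passed, 15 passed with the same sign under all 14 settings. DESeq2, its size factors in edgeR and both filters lost none of the 20. Higher and lower members numbered 14 and 7 with library totals, which moved the split over all genes from 3429 higher and 3864 lower to 4735 and 2797, and 16 and 11 with GC content and length as offsets. Leaving out 1 library gave 10 to 15 higher and 6 to 11 lower members, and 8 to 22 higher and 14 to 26 lower of the other pathway genes, with the most calls without GLCC1 siRNA replicate 2. The other pathway genes that were higher, 12 as reported, were 19 with library totals and 20 with the offsets, and 18 with at least 10 counts in every library, where 15 were lower. No called member turned sign. Among members that did not pass, library totals turned ZNRF3 to 0.037, AXIN2 to 0.057, PROX1 to 0.092, EPHB4 to 0.078 and CCND1 to 0.055. PROX1 was at 0.0087 with 10 counts in every library. Leaving out 1 library gave ranges of -0.0082 to 0.22 for AXIN1, -0.17 to 0.065 for PROX1 and -0.083 to 0.038 for EPHB4, which was at 0.12 with the offsets. The cause was not tested.

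Same-numbered libraries did not deviate together (correlations of -0.16, -0.29 and -0.0081 over 14875 genes). Differently numbered libraries gave correlations from -0.24 to 0.25. With deviations taken within groups of 3 libraries, these values cannot decide whether the replicate numbers are a pairing. With a replicate block 11 members were higher and 9 lower, and 10 and 18 of the other pathway genes, FZD7 no longer passed (log2 fold change 0.32, edgeR adjusted p = 0.061) and CD44 did (-0.75, adjusted p = 0.048). The depth limits what can be said of PROM1, SMOC2, OLFM4, DKK1 and DKK4.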

Other observations

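The markers of differentiated intestinal cells that passed were lower, except for 1 at a low level. Their summed level was between 135 and 142 CPM in controls and between 59.8 and 73.6 CPM with GLCC1 siRNA, mostly CA2. CA2, the carbonic anhydrase of colonocytes, went from 110.4 to 48.8 CPM (log2 fold change -1.18 ± 0.085 SE, edgeR adjusted p = 3.9e-07) and ALPI, the alkaline phosphatase of the enterocyte brush border, from 20.2 to 9.92 CPM (log2 fold change -1.01 ± 0.17 SE, edgeR adjusted p = 4.3e-04). FABP1, the fatty acid binding protein of enterocytes, was higher (log2 fold change 1.60 ± 0.42 SE, edgeR adjusted p = 0.010), at a level of only 0.513 and 1.57 CPM. MUC2, the mucin of goblet cells, was at 3.04 and 1.80 CPM and did not pass (log2 fold change -0.73 ± 0.27 SE, edgeR adjusted p = 0.053). Of the 11 markers, 8 were tested, 1 was higher, 2 were lower and 5 did not pass. Of the colon epithelium markers, KRT18 (log2 fold change -1.82 ± 0.089 SE, edgeR adjusted p = 2.2e-08) and KRT19 (log2 fold change -1.34 ± 0.10 SE, edgeR adjusted p = 5.3e-07) fell beside KRT8, CDH1 fell too (log2 fold change -0.53 ± 0.084 SE, edgeR adjusted p = 3.0e-04), and VIL1 was at 205 and 237 CPM and did not pass.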
